A study of Mus musculus with 16 samples.

Results

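The genes described here are 10 genes of MHC class I antigen presentation, taken by name from a table of 27179 mouse genes. They are H2-K1, H2-D1, B2m, Tap1, Tap2, Tapbp, Psmb8, Psmb9, Psmb10 and Nlrc5, and all 10 were found and passed the filter on low counts. Their RNA was followed in 15 mammary tumors, 3 in each of 5 treatment groups, and in 1 internal reference library that is given apart. Every tumor was a transplant of the same Trp53 null mammary tumor family, named F, grown in a BALB/cJ female that was 8 to 10 weeks old at transplantation. Treatment began at a tumor size of 65 to 100 mm3, and tumors were taken 7 days after treatment. Sham mice received a control immunoglobulin G at 25 mg/kg. TGFbi mice were given IPW-5371, a drug that blocks TGF-beta signaling, at 20 mg/kg, and the labels name the control together with the inhibitor for them. RT mice received 10 Gy of focal radiation, and TGFbi+RT mice received both. A PD-L1 antibody at 10 mg/kg was added to both in TGFbi+RT+anti-PD-L1 mice, called the triple group. All tumors stem from 1 family, so the spread given here is the spread between mice carrying that family.

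MHC class I molecules carry short peptides from inside a cell to its surface, where CD8 T cells read them. The proteasome cuts proteins into peptides, the TAP transporter moves the peptides into the endoplasmic reticulum, and a loading complex fits them to a heavy chain bound to beta-2-microglobulin. Interferon gamma is known to raise these genes together, partly through the transcriptional activator encoded by Nlrc5, and loss of class I molecules is a known way for tumors to escape T cells.

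Promoter windows were looked up for the 10 genes in RefSeq sequence of build GRCm38.p6, each from 250 bases before to 50 bases after a start site, and 8 genes had one. None was found for Tap2 or Nlrc5. Both strands were searched for exact matches to 3 motifs, and no matches overlapped in these windows. Variants that differ by a letter were not searched, so a window without a match may still hold such an element. The pair of GAAA blocks 2 bases apart, the core of an interferon response element, lay in the B2m window and in no other window of these genes, against 3.44% of all 32851 windows of this length. TTC and GAA 3 bases apart, the core of a STAT binding site, lay in the Psmb8 window only, against 8.30% of all windows. CCAAT lay in the windows of 6 genes (H2-K1, H2-D1, B2m, Tap1, Tapbp and Psmb9), against 37.4% of all windows. The Tap1 and Psmb9 matches are the same letters of the chromosome, in the part that their windows share, so they are not separate matches. Capitals mark the matches to the 3 motifs, with ATTGG as CCAAT read from the opposite strand. The windows of B2m and Psmb8 are shown for the interferon and STAT motifs, those of the 2 heavy chains for their paired CCAAT letters, and that of Tap1 because it also serves Psmb9, which is read in the opposite direction.

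B2m promoter, chr2:122147437-122147736, plus strand: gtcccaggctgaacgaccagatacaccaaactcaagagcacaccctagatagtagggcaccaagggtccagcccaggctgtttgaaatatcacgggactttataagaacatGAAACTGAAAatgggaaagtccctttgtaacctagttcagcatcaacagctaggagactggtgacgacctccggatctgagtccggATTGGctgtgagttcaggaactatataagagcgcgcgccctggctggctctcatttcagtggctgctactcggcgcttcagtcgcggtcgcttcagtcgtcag

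Psmb8 promoter, chr17:34197945-34198244, plus strand: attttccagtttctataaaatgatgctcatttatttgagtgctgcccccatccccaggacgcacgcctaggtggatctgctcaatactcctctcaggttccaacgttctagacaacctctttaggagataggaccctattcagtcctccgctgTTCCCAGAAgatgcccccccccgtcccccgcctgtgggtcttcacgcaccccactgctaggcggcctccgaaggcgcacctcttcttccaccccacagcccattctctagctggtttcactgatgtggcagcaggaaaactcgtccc

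H2-K1 promoter, chr17:34000284-34000583, minus strand: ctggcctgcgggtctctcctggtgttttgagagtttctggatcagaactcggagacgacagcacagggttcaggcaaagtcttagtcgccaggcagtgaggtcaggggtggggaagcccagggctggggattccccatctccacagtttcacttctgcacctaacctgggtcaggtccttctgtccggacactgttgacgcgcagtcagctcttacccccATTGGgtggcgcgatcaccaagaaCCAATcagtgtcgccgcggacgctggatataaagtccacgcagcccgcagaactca

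H2-D1 promoter, chr17:35262844-35263143, plus strand: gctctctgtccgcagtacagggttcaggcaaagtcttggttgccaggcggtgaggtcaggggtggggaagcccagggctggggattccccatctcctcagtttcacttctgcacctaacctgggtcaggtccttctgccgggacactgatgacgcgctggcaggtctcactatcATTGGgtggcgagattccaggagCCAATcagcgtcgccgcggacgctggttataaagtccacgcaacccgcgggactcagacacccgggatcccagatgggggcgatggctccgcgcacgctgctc

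Tap1 promoter, chr17:34187306-34187605, plus strand: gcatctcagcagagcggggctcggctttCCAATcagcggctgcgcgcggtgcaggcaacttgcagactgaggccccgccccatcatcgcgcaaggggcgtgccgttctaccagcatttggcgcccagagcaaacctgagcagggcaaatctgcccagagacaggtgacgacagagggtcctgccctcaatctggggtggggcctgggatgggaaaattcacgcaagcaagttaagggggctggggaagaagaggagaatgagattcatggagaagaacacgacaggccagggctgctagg

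The Psmb9 window covers chromosome 17 from 34187281 to 34187580 on the minus strand and shares 275 bases with the Tap1 window. A match describes letters and not a bound site.

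Total counts were 11002869 to 17184023 per tumor. Of the 15 tumors, TGFbi+RT replicate 3 and triple replicate 2 lay apart at 1 end of the first principal component. It was taken over all tested genes outside the lists used here and held 45.9% of the variance. The 2 tumors scored 98.8 and 110 on it. The other 13 were spread widely themselves, from -86.8 (Sham replicate 2) to 33.3 (RT replicate 1). The main results that rest on the 2 tumors are given with and without them, a choice made after the data were seen. Libraries also carried 1 of 2 codes in their names. All RT libraries had the code A2304, all Sham, TGFbi and TGFbi+RT libraries had A2301, and the triple group had both. RT and code therefore cannot be told apart in a comparison with Sham, TGFbi or TGFbi+RT, or in the interaction of TGFbi and RT. A fit with the library code as a term estimates it from triple replicate 1 against replicates 2 and 3. Values from that fit thus carry the level of triple replicate 2. The 2 tumors that lay apart carried different codes, and TGFbi+RT replicate 3, like TGFbi replicate 3, is marked as resubmitted in its library name. Trp53 was counted at 63.9 to 110 CPM (counts scaled to a common library total) in every tumor, but the deleted part of the gene is not given, so this does not check the genotype. Epcam, a surface protein of epithelium, measured 110 to 203 CPM in every tumor.

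All 10 genes were far higher in those 2 tumors than in any other. In both, each of the 10 lay above all 13 remaining tumors, which held for 16.0% of the 16017 genes tested, and 11.6% lay below all 13 in both. The distance varied by gene. In TGFbi+RT replicate 3 the level was 3.01 times (B2m) to 7.65 times (Tapbp) the median of the 13 tumors, and in triple replicate 2 it was 3.71 times (B2m) to 8.84 times (Tapbp) that median. Neither tumor shared a group with the other. In bulk tumor RNA, more cells of a type and more RNA per cell cannot be told apart.

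**Figure D1:**
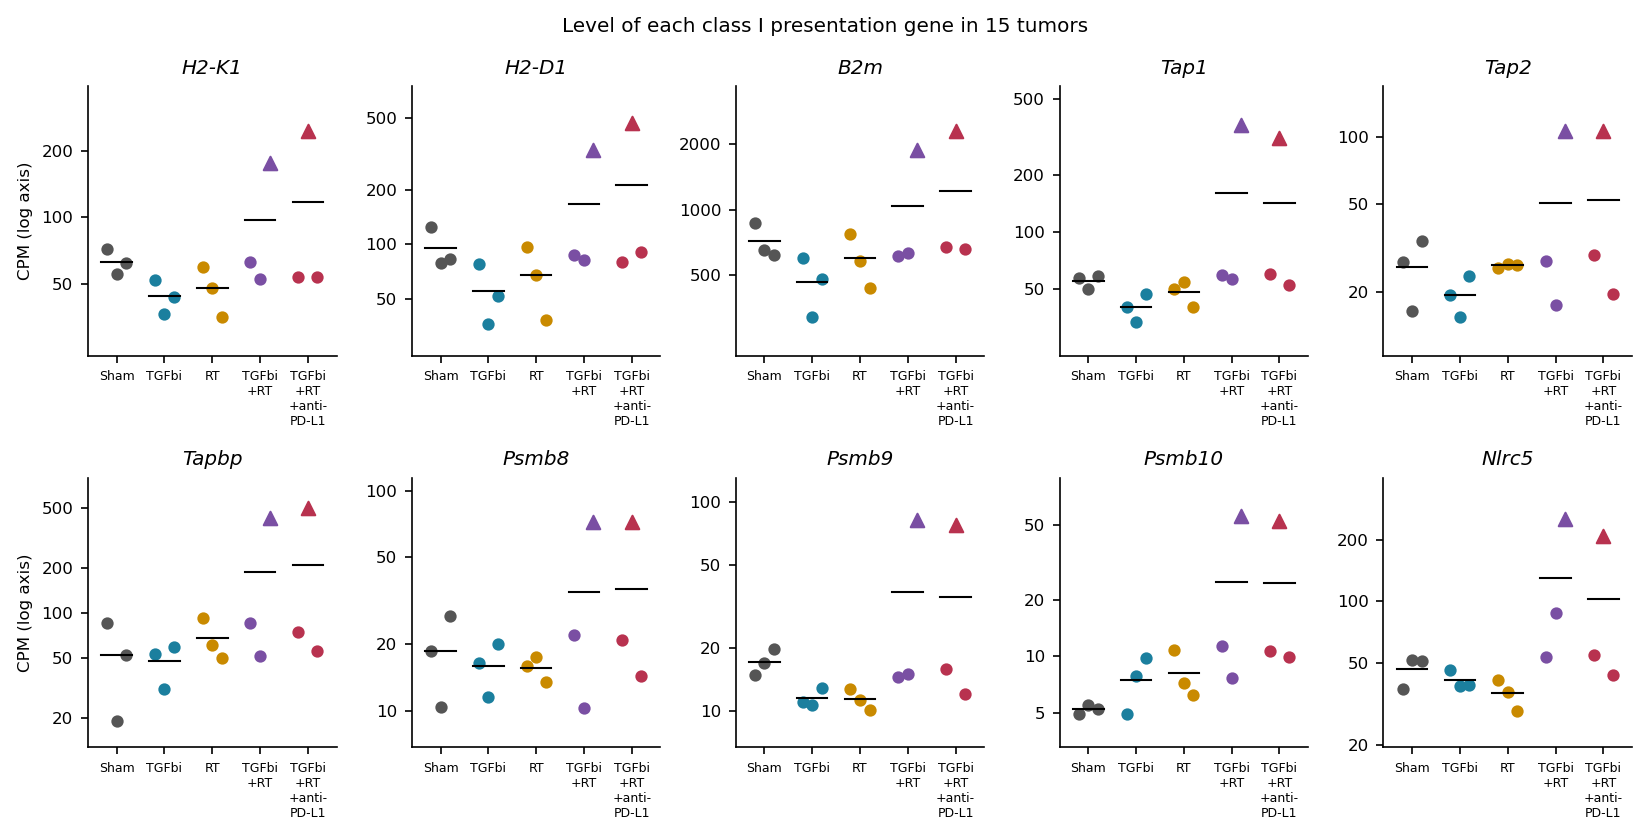
Level of each of the 10 genes in CPM on a log axis, in replicates 1 to 3 from left to right within each group, with a black line at the group mean. Triangles mark TGFbi+RT replicate 3 and triple replicate 2, which lie above the other 13 tumors in all 10 panels.

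The heavy chains and their partner came first. H2-K1, a classical class I heavy chain (Entrez 14972, chromosome 17, 33996012 to 34000333), measured 71.3, 54.9 and 62.2 CPM in Sham, 51.7, 36.3 and 43.6 CPM in TGFbi and 59.5, 47.8 and 35.3 CPM in RT. In TGFbi+RT it measured 62.8, 52.2 and 176 CPM, and in the triple group 53.7, 246 and 53.5 CPM. All 3 TGFbi tumors were below all 3 Sham tumors, RT overlapped Sham, and each combination group held 1 high tumor beside 2 tumors within or just below the Sham range. The difference from Sham was a log2 fold change of -0.52 ± 0.56 (SE) in TGFbi, with an edgeR adjusted p of 0.852, and 0.62 ± 0.56 in TGFbi+RT, with an edgeR adjusted p of 0.608. With the 2 tumors left out, the TGFbi+RT value was -0.14 ± 0.22.

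H2-D1, the other heavy chain measured (Entrez 14964, chromosome 17, 35263094 to 35267497), gave 125, 79.0 and 82.8 CPM in Sham, 77.3, 36.4 and 51.7 CPM in TGFbi and 95.9, 67.7 and 37.9 CPM in RT. Its level was 86.7, 82.3 and 333 CPM in TGFbi+RT and 79.4, 468 and 90.7 CPM in the triple group. Again TGFbi lay wholly below Sham and the 2 high tumors stood alone, while the other 4 tumors of the combinations lay within the Sham range. Its log2 fold change from Sham was -0.79 ± 0.69 in TGFbi (edgeR adjusted p of 0.805) and 1.15 ± 0.69 in the triple group (edgeR adjusted p of 0.453), with a 95% interval of -0.35 to 2.66. Leaving out the 2 tumors gave the triple group -0.19 ± 0.37. Mouse strains differ in class I sequence, and BALB/cJ reads were counted on a reference of another strain. In GENCODE transcripts of GRCm38, 9.63% of the 50-base stretches of H2-K1 and 12.8% of those of H2-D1 also occurred in other genes, most often class I relatives, so the levels of these genes are uncertain.

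B2m, which encodes beta-2-microglobulin (Entrez 12010, chromosome 2, 122147687 to 122153082), was the most abundant of the 10 per length. It measured 873, 652 and 622 CPM in Sham, 601, 322 and 480 CPM in TGFbi and 776, 580 and 440 CPM in RT. Its levels were 612, 633 and 1870 CPM in TGFbi+RT and 673, 2306 and 657 CPM in the triple group. TGFbi did not overlap Sham, with a log2 fold change of -0.61 ± 0.52 (edgeR adjusted p of 0.795), and the other groups did overlap it. In TGFbi+RT the log2 fold change was 0.54 ± 0.52 (edgeR adjusted p of 0.639), and without the 2 tumors it was -0.21 ± 0.27. The heavy chains stood higher relative to their partner in the high tumors. Per length, B2m was 7.31 and 6.42 times the sum of H2-K1 and H2-D1 in TGFbi+RT replicate 3 and triple replicate 2, and 8.09 to 11.8 times that sum in the other 13. H2-D1 was 1.80 and 1.81 times H2-K1 in the same 2 tumors, and 0.95 to 1.66 times H2-K1 in the rest.

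Genes of peptide transport and loading were high in the same 2 tumors. Tap1, a subunit of the peptide transporter (Entrez 21354, chromosome 17, 34187556 to 34197225), measured 56.9, 50.03 and 58.0 CPM in Sham, 40.0, 33.3 and 46.6 CPM in TGFbi and 49.8, 54.2 and 39.8 CPM in RT. It reached 59.4, 56.3 and 367 CPM in TGFbi+RT and 59.8, 313 and 52.4 CPM in the triple group. The 13 other tumors stayed within a 1.80-fold range, the narrowest of the 10 genes, and the lower of the 2 high tumors was 5.23 times the highest of them. TGFbi was below Sham without overlap, by a log2 fold change of -0.46 ± 0.73 (edgeR adjusted p of 0.906). TGFbi+RT had 1.55 ± 0.74 against Sham (edgeR adjusted p of 0.343) and 0.06 ± 0.17 without the 2 tumors.

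Tap2, the partner of Tap1 in the transporter (Entrez 21355, chromosome 17, 34204479 to 34216321), measured 27.2, 16.3 and 33.9 CPM in Sham, 19.4, 15.4 and 23.4 CPM in TGFbi and 25.6, 26.7 and 26.5 CPM in RT. It was counted at 27.5, 17.5 and 107 CPM in TGFbi+RT and at 29.1, 107 and 19.4 CPM in the triple group. Every group overlapped Sham for Tap2, and its log2 fold change in TGFbi was -0.41 ± 0.66 (edgeR adjusted p of 0.909). Per length, Tap1 exceeded Tap2 in all 15 tumors, by 1.27 to 2.91 times. Tapbp encodes tapasin, which bridges the transporter and the heavy chain (Entrez 21356, chromosome 17, 33919478 to 33929290). It measured 85.4, 19.3 and 52.4 CPM in Sham, 53.2, 31.4 and 59.0 CPM in TGFbi and 93.2, 61.6 and 49.9 CPM in RT. In TGFbi+RT it measured 85.2, 51.5 and 428 CPM, and in the triple group 75.1, 494 and 55.9 CPM. Sham alone spanned nearly the whole range of the 13 tumors, which was 4.82-fold and the widest of the 10 genes. Its log2 fold change from Sham was 1.84 ± 0.90 in TGFbi+RT (edgeR adjusted p of 0.351) and 1.99 ± 0.90 in the triple group (edgeR adjusted p of 0.329). They were 0.37 ± 0.50 and 0.30 ± 0.50 without the 2 tumors.

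The 3 immunoproteasome subunits replace constitutive catalytic subunits and favor peptides that bind class I molecules. Psmb8 (Entrez 16913, chromosome 17, 34198195 to 34201454) measured 18.7, 10.4 and 26.9 CPM in Sham, 16.5, 11.5 and 20.0 CPM in TGFbi and 16.0, 17.4 and 13.6 CPM in RT. It measured 22.1, 10.2 and 71.8 CPM in TGFbi+RT and 20.9, 71.8 and 14.4 CPM in the triple group. Apart from the 2 high tumors, Psmb8 of the treated tumors lay within the Sham range in all but 1 case, TGFbi+RT replicate 2. Its log2 fold change in TGFbi+RT was 0.89 ± 0.67 (edgeR adjusted p of 0.539) and -0.22 ± 0.41 without the 2 tumors. Psmb9 (Entrez 16912, chromosome 17, 34182099 to 34187330) measured 14.9, 17.03 and 19.7 CPM in Sham, 11.0, 10.7 and 12.9 CPM in TGFbi and 12.8, 11.3 and 10.1 CPM in RT. It measured 14.6, 15.0 and 82.0 CPM in TGFbi+RT and 15.9, 77.7 and 12.1 CPM in the triple group. All 6 tumors given a single agent were below all 3 Sham tumors for Psmb9. The log2 fold change was -0.58 ± 0.71 in TGFbi (edgeR adjusted p of 0.873) and -0.60 ± 0.70 in RT (edgeR adjusted p of 0.999).

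Psmb10 (Entrez 19171, chromosome 8, 105935728 to 105938392) had fitted values above Sham in both single-agent groups, although the value in RT turned to -0.92 with the library code as a term. It measured 4.95, 5.49 and 5.25 CPM in Sham, 4.92, 7.82 and 9.78 CPM in TGFbi and 10.9, 7.19 and 6.25 CPM in RT. Its levels were 11.3, 7.63 and 56.0 CPM in TGFbi+RT and 10.7, 52.7 and 9.96 CPM in the triple group. The Sham tumors were low and close together, and 11 of 12 treated tumors lay above all 3 of them, a count that 2.32% of all genes reached or passed. TGFbi replicate 1 was the exception. The log2 fold change from Sham was 0.52 ± 0.74 in TGFbi (edgeR adjusted p of 0.894), 0.63 ± 0.74 in RT (0.999), 2.25 ± 0.76 in TGFbi+RT (0.222) and 2.22 ± 0.76 in the triple group (0.230). DESeq2 gave adjusted p of 0.0518 for TGFbi+RT and 0.0481 for the triple group. Without the 2 tumors the combinations had 0.84 ± 0.31 and 0.96 ± 0.31, so the direction was the same and the size was smaller, with edgeR adjusted p of 0.461 and 0.462. Psmb10 was the lowest count of the 10, at 56 to 774 fragments per tumor.

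Measured against their constitutive counterparts per length, the immunoproteasome subunits stood far higher in the 2 tumors. Psmb8, Psmb9 and Psmb10 made up 47.8% of the summed level of the 6 catalytic subunits in TGFbi+RT replicate 3 and 47.7% in triple replicate 2, against 7.45% to 13.3% in the other 13. Psmb8 was 4.22 and 5.61 times Psmb5 in the 2 tumors and 0.41 to 1.21 times Psmb5 elsewhere. Psmb9 was 1.70 and 1.51 times Psmb6, against 0.12 to 0.25 times. Psmb10 was 0.30 and 0.29 times Psmb7, against 0.017 to 0.054 times. The constitutive subunits themselves were in or under the range of the 13 tumors. Psmb5 measured 12.1 and 9.13 CPM against 9.91 to 18.3 CPM, Psmb6 measured 62.2 and 66.0 CPM against 78.0 to 116 CPM, and Psmb7 measured 145 and 137 CPM against 141 to 241 CPM. None of the 3 was called in any comparison with Sham, and their log2 fold changes in TGFbi+RT were -0.37 ± 0.26 for Psmb5, -0.41 ± 0.19 for Psmb6 and -0.29 ± 0.24 for Psmb7 (edgeR adjusted p of 0.342 to 0.573).

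**Figure D2:**
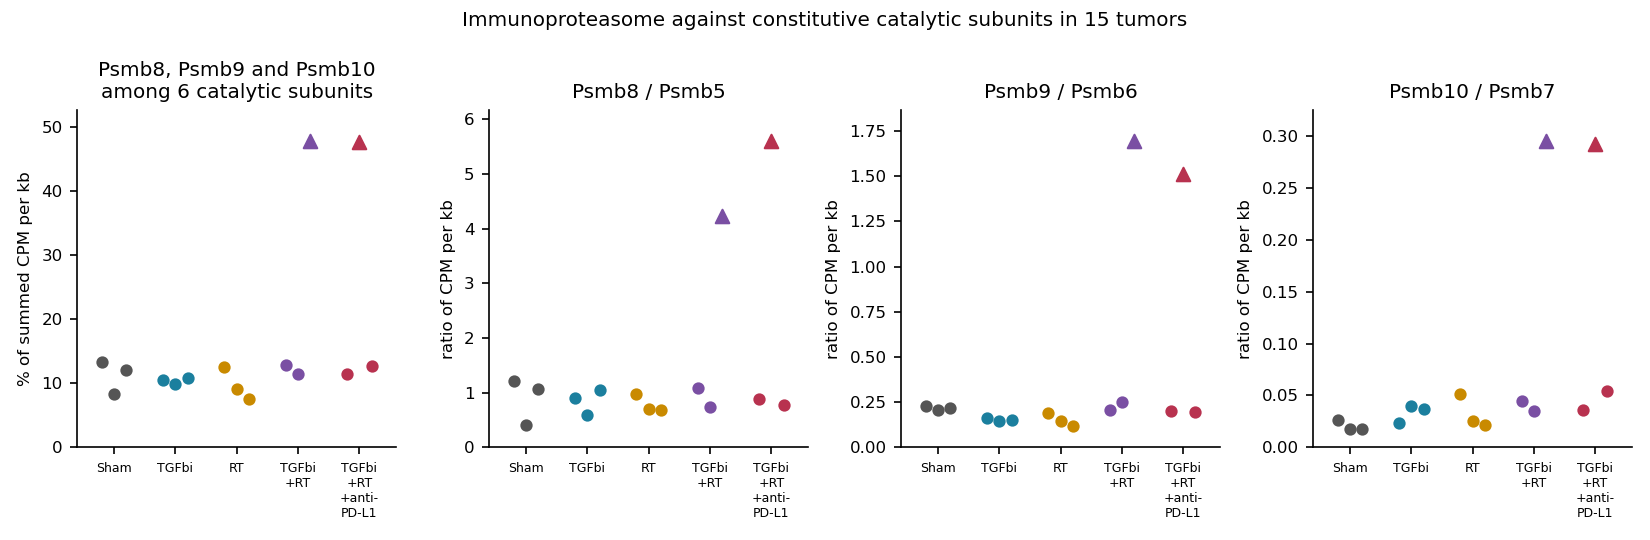
Share of Psmb8, Psmb9 and Psmb10 in the summed CPM per kilobase of the 6 catalytic proteasome subunits, in percent, and the ratio of each to the subunit it replaces, in replicates 1 to 3 of each group. The 2 tumors drawn as triangles hold 47.8% and 47.7%, and the other 13 hold 7.45% to 13.3%.

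Nlrc5, the class I transactivator (Entrez 434341, chromosome 8, 94472763 to 94527272), measured 37.5, 51.7 and 51.2 CPM in Sham, 46.3, 38.8 and 39.4 CPM in TGFbi and 41.3, 36.4 and 29.3 CPM in RT. Its levels were 53.3, 87.6 and 251 CPM in TGFbi+RT and 54.9, 209 and 43.8 CPM in the triple group. All 3 TGFbi+RT tumors were above Sham, and TGFbi+RT replicate 2 was the highest of the 13 tumors for Nlrc5 while it was the lowest of all 15 for Psmb8. The log2 fold change was -0.39 ± 0.58 in RT (edgeR adjusted p of 0.999), 1.48 ± 0.58 in TGFbi+RT (0.266) and 1.13 ± 0.58 in the triple group (0.382). Without the 2 tumors the TGFbi+RT value was 0.58 ± 0.23 (edgeR adjusted p of 0.495) and the triple value 0.06 ± 0.24.

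Compared over treatments, none of the 10 genes passed edgeR's quasi-likelihood test at an adjusted p of 0.05 in any of 10 pairwise comparisons, in the interaction of TGFbi and RT or in the test for any difference among the 5 groups. Few genes passed at all. The share of all genes called was 0.00624% in TGFbi vs Sham, 0.0125% in TGFbi vs RT and 0% in the other 10 tests. At an unadjusted p under 0.05 edgeR had 0 of the 10 genes in TGFbi vs Sham and RT vs Sham, against 8.48% and 4.20% of all genes. Without the 2 tumors it had 5 in TGFbi vs Sham (H2-K1, H2-D1, B2m, Tap1 and Psmb9, all lower) and 1 in RT vs Sham (Psmb9, lower), against 10.6% and 5.79% of all genes. It had 2 in TGFbi+RT vs Sham and 2 in the triple group vs Sham, against 15.0% and 14.9% of all genes. Those counts were 2 and 1 without the 2 tumors, against 9.06% and 8.24%. DESeq2 called Psmb10 in the triple group vs Sham, with 3.51% of all genes called, and it called Psmb10 and Nlrc5 for any difference among the groups (adjusted p of 0.0451 and 0.0397), with 3.92% of all genes called. DESeq2 called 0 of the 10 genes in the other tests, where its share of all genes ran from 0.00442% (RT vs Sham) to 2.7% (TGFbi+RT vs Sham). It gave no adjusted p for Tap1 in any test, so 9 genes could be called. Over the same tests limma-voom called 0 of the 10 and 0% of all genes.

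In TGFbi vs Sham, 9 of the 10 genes were below Sham and the median log2 fold change was -0.44, against -0.01 over all genes. H2-K1, H2-D1, B2m, Tap1 and Psmb9 lay below Sham without overlap between tumors, 5 of 10 against 7.88% of all genes, and 0 lay above it, against 7.43%. The inhibitor tumors and the Sham tumors share the code A2301. Adipocyte markers also differed between these tumors. The 5 of them summed to 0 to 0.324 CPM in Sham and 1.62 to 137 CPM in TGFbi, and 4 of the 5 were higher at an unadjusted p under 0.05, against 3.50% of all genes, with 0 called by edgeR. In TGFbi replicates 1 to 3 the adipocyte sums were 137, 6.22 and 1.62 CPM, and the 10 genes summed to 922, 543 and 786 CPM. The adipocyte sums were 0.0703 to 14.2 CPM in RT, 6.53 to 145 CPM in TGFbi+RT and 8.95 to 73.8 CPM in the triple group. The part of adipocytes in the levels of the 10 genes was not tested. In RT vs Sham the median was -0.26 with 7 of 10 genes below Sham, against 0.01 over all genes. It was -0.12 without RT replicate 3 and -1.54 with the library code as a term. Psmb9 lay below Sham and Psmb10 above it without overlap, 1 of 10 in each direction, against 6.28% lower and 5.77% higher over all genes.

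In TGFbi+RT vs Sham the 10 fitted values were all above 0, at 0.54 to 2.25 with SE of 0.52 to 0.90 and a median of 1.04, against -0.01 over all genes. Psmb10 and Nlrc5 lay above Sham without overlap, 2 of 10 against 10.7% of all genes, and 0 lay below, against 7.61%. Without TGFbi+RT replicate 3 the median was -0.17. The triple group gave 10 values above 0 with a median of 1.08, against -0.0043 over all genes. Psmb10 alone lay above Sham without overlap, 1 of 10 against 9.41%, and 0 lay below, against 7.15%. Without triple replicate 2 the median was -0.11, and with the library code as a term it was 0.14. Both values come from the same Sham tumors. Between the 2 combinations, the triple group minus TGFbi+RT gave a median of 0.04 and single values of -0.35 (Nlrc5) to 0.35 (H2-D1) with SE of 0.52 to 0.87, so the 95% interval for Psmb10, -1.58 to 1.53, leaves room for a change in either direction. This difference moved to -1.16 without triple replicate 2 and to 1.23 without TGFbi+RT replicate 3.

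**Figure D3:**
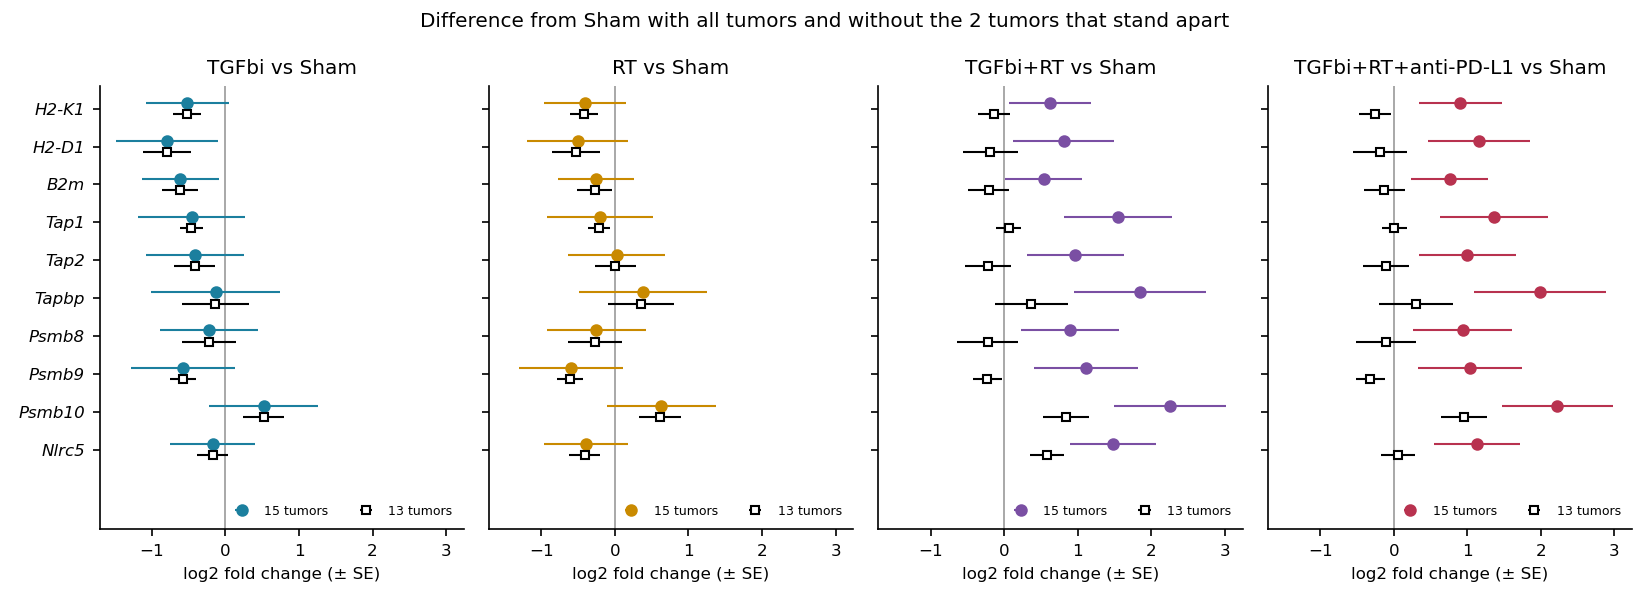
Log2 fold change from Sham of each gene with its standard error, fitted to all 15 tumors (filled circles) and to the 13 tumors left without TGFbi+RT replicate 3 and triple replicate 2 (open squares). In the 2 combination groups the median falls from 1.04 and 1.08 to -0.17 and -0.11. Tap1, Tapbp, Psmb10 and Nlrc5 keep values above 0 in both groups, the largest in Psmb10 at 0.84 and 0.96.

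Against the single agents the combinations had larger fitted differences. TGFbi+RT minus TGFbi had a median of 1.63 with 7 of 10 genes at an unadjusted p under 0.05 (6.06% of all genes), and TGFbi+RT minus RT had 1.39 with 4 (9.62%). The triple group had 1.52 with 8 against TGFbi (10.5%) and 1.54 with 4 against RT (5.78%). Without the 2 tumors these medians were 0.39, 0.25, 0.37 and 0.20 and the counts 2, 1, 1 and 0, against 3.67%, 6.55%, 4.66% and 2.21% of all genes. With the library code as a term, TGFbi+RT minus RT had 3.10 and the triple group minus TGFbi had 0.52. That term is estimated within the triple group alone, so values from this fit carry the level of its high replicate 2. The interaction is the difference of TGFbi+RT from Sham minus the summed differences of the single agents from Sham. It was 1.57 in the median, 0.71 without the 2 tumors and 3.14 with the library code as a term. The genes at an unadjusted p under 0.05 were Psmb9, with 2.28 ± 1.00, and Nlrc5, with 2.04 ± 0.82, and both had an edgeR adjusted p of 1. They are 2 of 10, against 3.8% of all genes, and without the 2 tumors there were 5 of 10 (H2-K1, H2-D1, Tap1, Psmb9 and Nlrc5), against 4.99%. Psmb9 and Nlrc5 then had 0.96 ± 0.26 and 1.16 ± 0.32 (edgeR adjusted p of 0.784 for both). Without the 2 tumors the medians from Sham were -0.44 in TGFbi, -0.27 in RT and -0.17 in TGFbi+RT. The positive median interaction there thus goes with a smaller decrease than the summed decreases, not with a rise above Sham. In that fit H2-K1, H2-D1 and Psmb9 had -0.14, -0.19 and -0.23 in TGFbi+RT vs Sham, while Tap1 and Nlrc5 had 0.06 and 0.58.

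Not all other genes of the pathway were high in the 2 tumors. Over all genes, 16.0% lay above the 13 tumors in both high tumors and 11.6% lay below. Among 7 chaperones, trimming and loading genes, Tapbpl (33.6 and 38.5 CPM against 6.88 to 13.6 CPM) and Erap1, an aminopeptidase that trims peptides (147 and 141 CPM against 37.2 to 65.2 CPM), lay above the 13 tumors in both high tumors. Calr, Pdia3, Pdia6 and Hspa5 were not above them in both, and Canx, the chaperone calnexin, was below them (635 and 645 CPM against 666 to 905 CPM). Of 12 other genes of the 20S proteasome, the assembly factor Pomp among them, 0 lay above and 1 lay below. Of the 3 activator subunits, Psme1 and Psme2, which form the interferon-inducible cap, lay above (120 and 115 CPM against 33.9 to 60.5 CPM for Psme1). Psme3 did not. No gene of these lists was called by edgeR in a comparison with Sham. In TGFbi+RT vs Sham, 1 of the 7 loading genes was higher and 2 of the 12 other 20S genes were lower at an unadjusted p under 0.05, against 9.76% of all genes higher and 5.28% lower. The list medians were 0.05 and -0.28, and without the 2 tumors the counts were 1 and 0 and the medians -0.03 and -0.26.

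Of 16 tested genes among the other class I genes, 15 lay above the 13 tumors in both high tumors, against 16.0% of all genes. H2-T24 measured 73.7 and 88.7 CPM against 2.37 to 22.3 CPM, and H2-Q7 measured 45.2 and 59.5 CPM against 3.56 to 19.1 CPM. Mr1, which presents vitamin metabolites to innate-like T cells, was the exception and lay below, at 32.5 and 37.5 CPM against 44.9 to 139 CPM. Its log2 fold change in TGFbi+RT was -1.32 ± 0.31 (edgeR adjusted p of 0.207) and -1.08 ± 0.29 without the 2 tumors (0.412), and in TGFbi -0.73 ± 0.31 (edgeR adjusted p of 0.540). Of 16 transcription factors of class I genes, 8 lay above in both. Irf9, a DNA-binding partner in interferon signaling, measured 75.1 and 80.2 CPM against 9.01 to 26.6 CPM. The log2 fold change in TGFbi+RT vs Sham was 2.77 ± 0.90 for Stat2 (edgeR adjusted p of 0.213), and Irf9 had 1.32 ± 0.54 (0.276) and Irf8 had 2.45 ± 1.06 (0.299). When the 2 tumors were left out, Stat2 had 1.38 ± 0.55, Irf9 0.46 ± 0.30 and Irf8 0.82 ± 0.71, with edgeR adjusted p of 0.494, 0.689 and 0.777. No gene of these lists was called by edgeR in this comparison, and at an unadjusted p under 0.05 there were 4 of the 16 class I genes higher and 1 lower, and 5 of the 16 transcription factors higher and 1 lower, against 9.76% of all genes higher and 5.28% lower. Leaving out the 2 tumors gave 1 higher and 1 lower of the class I genes and 2 higher and 1 lower of the transcription factors, against 5.92% and 3.15%, and the list medians went from 0.75 and 0.18 to -0.0014 and -0.03. The 4 genes of polycomb repressive complex 2, a known repressor of class I genes in tumors, lay neither above nor below in both. Over all genes 16.0% lay above and 11.6% below, so a list of 4 is too short to be set apart from those shares.

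The order of the 10 genes per kilobase of exon was B2m, H2-D1, H2-K1, Tapbp, Tap1, Psmb9, Psmb8, Tap2, Nlrc5 and Psmb10, from a median of 737 to 6.15 CPM per kilobase. B2m exceeded H2-D1 in all 15 tumors and H2-D1 exceeded H2-K1 in 14. Nlrc5 exceeded Psmb10 in 5 of 15 only, so the last places are not separated beyond the spread, and Tap1 exceeded Psmb9 in 10. Over the 13 tumors, where the 2 high ones cannot set the value, the median Spearman correlation of the 45 gene pairs was 0.45, as a description with no test. H2-K1 with H2-D1 (0.88), H2-D1 with B2m (0.87) and Tap2 with Psmb8 (0.85) were the most alike. Psmb10 reached at most 0.42 with any other, and Nlrc5 was 0.68 with Psmb9 and -0.05 with Tapbp.

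**Figure D4:**
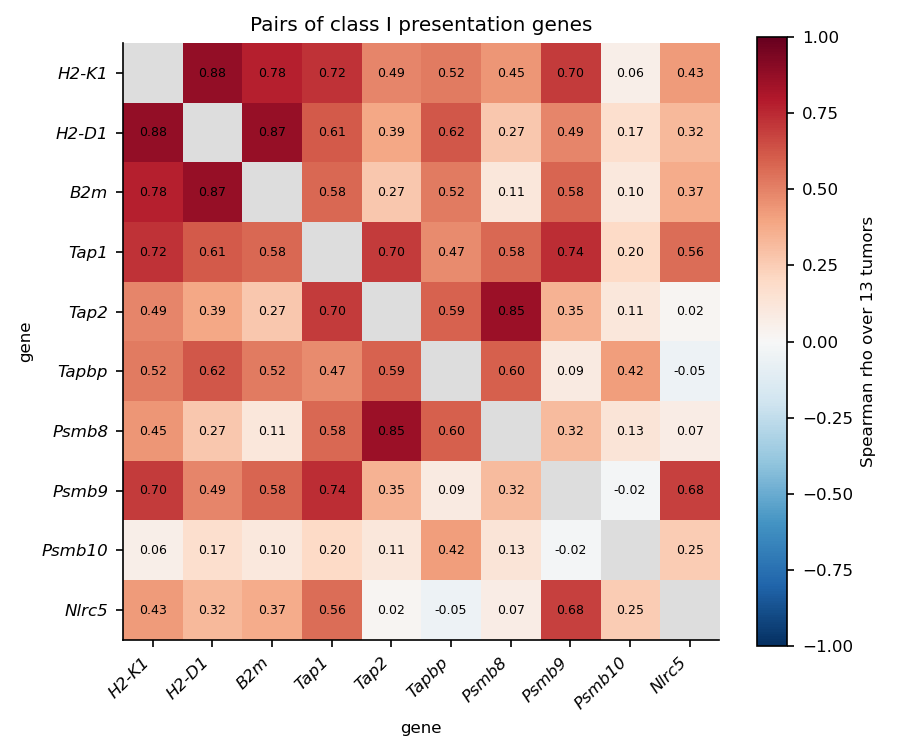
Spearman correlation of log2 CPM for each pair of the 10 genes over the 13 tumors left without TGFbi+RT replicate 3 and triple replicate 2, on a scale from -1 to 1, with the genes on both axes. The heavy chains and B2m form the darkest block, and the row of Psmb10 stays at 0.42 or less.

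By Spearman correlation with the mean of the 10 genes over all 15 tumors, among 13173 other genes, the 8 most alike were Cd83 (0.94), H2-Q4 (0.94), H2-T23 (0.92), Zfp429 (0.92), H2-K2 (0.91), Cd22 (0.91), an Entrez identifier with no symbol (0.91) and Cd72 (0.91). Cd22 and Cd72 are receptors best known from B cells. The 5 B cell markers listed summed to 1.79 and 3.88 CPM in the 2 high tumors and to 38.4 CPM in triple replicate 1, and the 1 of them that could be tested did not lie above the 13 tumors in both. H2-Q4, H2-T23 and H2-K2 are class I relatives whose reads are uncertain in the same way. H2-Q4 measured 303 and 355 CPM in the 2 high tumors against 37.9 to 89.2 CPM. With Pearson's correlation 2 of these 8 remained among the first 8.

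Markers of several immune cell types, though not of all, were high in the same 2 tumors. Over all genes, 16.0% lay above the 13 tumors in both and 11.6% lay below. All 6 leukocyte markers lay above the 13 tumors in both high tumors, with summed levels of 1412 and 1804 CPM against 81.2 to 621 CPM. By group the sums were 81.2 to 309 CPM in Sham, 162 to 358 CPM in TGFbi, 108 to 621 CPM in RT, 332 to 1412 CPM in TGFbi+RT and 419 to 1804 CPM in the triple group. Of 7 tested cytotoxic lymphocyte markers all 7 did (summed 255 and 143 CPM against 0.211 to 10.3 CPM), as did 7 of 8 macrophage markers, 3 of 8 dendritic cell markers and 7 of 7 MHC class II genes (summed 1154 and 2648 CPM against 13.7 to 226 CPM). Of 8 epithelial markers 0 lay above and 2 lay below. Of 11 T cell markers 3 lay above in both, as did 1 of 4 tested neutrophil markers. The dendritic cell, epithelial, T cell and neutrophil counts are too small to be set apart from the shares over all genes. The T cell marker sum was 76.5 and 170 CPM in the 2 high tumors and 86.2 CPM in triple replicate 1, where Cd3e measured 9.20 CPM and Cd8a 6.74 CPM. The 10 genes summed to 1073 CPM in that tumor, against 3740 and 4344 CPM in the 2 high tumors. Cd3e was at 0 in Sham replicates 2 and 3 and RT replicate 3, and Cd8a was at 0 in all TGFbi tumors and RT replicate 2. Ifng, the gene of interferon gamma, had 25 and 20 fragments in the 2 high tumors and 0 to 5 in the others. RT replicate 1 had the highest leukocyte sum of the 13 tumors, 621 CPM. The 10 genes summed to 1181 CPM there, below only Sham replicate 1 among the 13, with 1314 CPM, and Tapbp at 93.2 CPM was the highest of the 13. Within Sham, the sums of leukocyte markers were 309, 81.2 and 142 CPM, and the sum of the 10 genes was lowest in the replicate with the lowest marker sum. B2m makes up most of that sum of the 10 genes and was itself lowest in Sham replicate 3. Nlrc5, Psmb9 and Psmb10 were lowest in Sham replicate 1, which had the highest marker sum, and the remaining genes in Sham replicate 2. The part of other cells in the levels of the 10 genes was not tested.

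**Figure D5:**
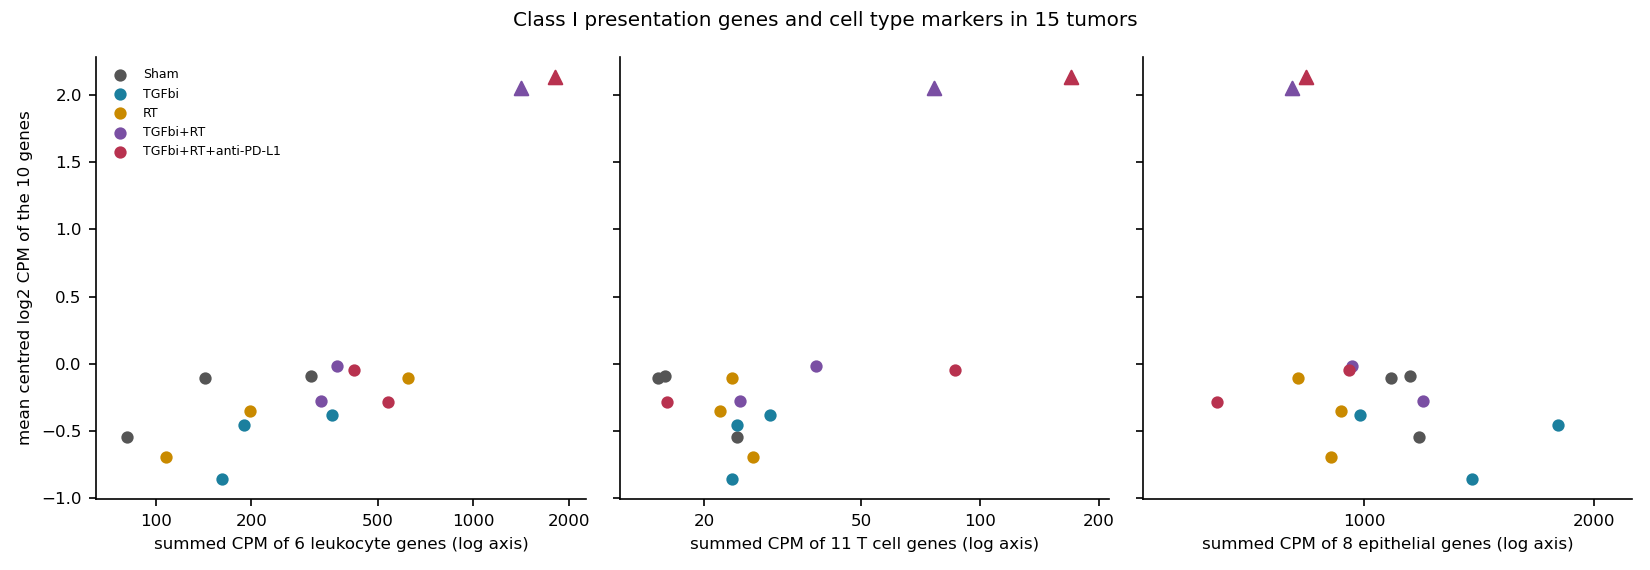
Mean of the centred log2 CPM of the 10 genes (vertical axis) against the summed CPM of 6 leukocyte, 11 T cell and 8 epithelial marker genes (horizontal log axes), 1 point per tumor in the color of its group. Triangles mark the 2 tumors that stand apart, with leukocyte sums of 1412 and 1804 CPM, and triple replicate 1 shows 86.2 CPM of T cell markers and lies below both triangles on the vertical axis.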

How the data were processed

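RNA was measured in 15 tumors and 1 reference library. The authors deposited fragment counts per Entrez gene without normalization, and a second deposited table with exon coordinates and length. Reads were placed on GRCm38, per the submitters' processing notes. The aligner, strand and annotation settings are not given in the sources used here, so reads of overlapping antisense genes cannot be told apart. Symbols matched 25275 of 27179 identifiers. Counts were filtered (filterByExpr of edgeR 4.0.16 in R 4.3.3, leaving 16017 genes), scaled by TMM (factors of 0.919 to 1.05) and fitted by edgeR's quasi-likelihood method, with a mean for each group (10 residual degrees of freedom, common biological coefficient of variation 0.364). P-values were adjusted over all genes (Benjamini-Hochberg, threshold 0.05), and tests are two-sided. Levels are TMM-scaled CPM, per kilobase of exon where genes are compared. An exact permutation of 3 against 3 tumors was not used, since it cannot pass 0.05.

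Alternatives were DESeq2 1.42.0, limma-voom (limma 3.58.1), RLE factors, no filter, 2 groups only, each tumor left out, a replicate block, the library code as a term, no resubmitted libraries, and totals without the most abundant unnamed gene, mitochondrial genes and Rn7sk. Leaving out the 2 tumors that stand apart was added after the data were seen. Replicate numbers were not taken to pair tumors: deviations of same-numbered tumors correlated at -0.579 to 0.671 (median -0.05), and 13 of 30 pairs passed 0.1. These values include the 2 tumors that stand apart and do not settle whether the numbers pair tumors. Within groups the chi-square per gene was 14.0 to 129, so no library was counted again. The script was tested on simulated counts. All 10 genes were named, with up to 4 genes of the transcription factor, activator, constitutive subunit and other class I lists by smallest p of the test among groups, and the 8 genes most alike. A transcription factor that this rule takes is not reported here by name, and the list counts include it. Names outside this rule (loading genes, markers, Ifng) were chosen after their values were seen. The members, the 22 lists (178 entries) and the markers were chosen with earlier results of these data known.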

Additional observations from a re-analysis of the deposited data

Results flagged for a closer look

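The internal reference library, which enters no comparison and whose source the labels do not describe further, held all 10 genes above the limit that 3 counts allow there, 0.333 CPM. H2-K1 measured 21.8 CPM, H2-D1 45.4 CPM and B2m 492 CPM. Tap1 measured 17.1 CPM, Tap2 21.6 CPM and Tapbp 149 CPM. Psmb8 measured 5.66 CPM, Psmb9 5.33 CPM, Psmb10 17.3 CPM and Nlrc5 14.8 CPM. H2-K1, Tap1, Psmb8, Psmb9 and Nlrc5 were below all 15 tumors there, and the other 5 genes were within the tumors' range. Of these 5, Tapbp and Psmb10 were within it only through the 2 high tumors, since the other 13 tumors reached 93.2 and 11.3 CPM. These values were scaled by the library's own total count, without TMM.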

How the results depend on the processing

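Without the 2 tumors that stand apart the median log2 fold change of the 10 genes was -0.17 in TGFbi+RT vs Sham, -0.11 in the triple group vs Sham, 0.25 in TGFbi+RT vs RT, 0.39 in TGFbi+RT vs TGFbi, 0.20 in triple vs RT, 0.37 in triple vs TGFbi and 0.71 for the interaction. H2-K1, B2m and Psmb8 in TGFbi+RT turned to -0.14, -0.21 and -0.22, and H2-D1 in the triple group to -0.19. Without the resubmitted libraries, TGFbi+RT replicate 3 and TGFbi replicate 3, the medians of TGFbi+RT were -0.15 vs Sham, 0.25 vs RT and 0.51 vs TGFbi, the interaction was 0.74, and H2-K1, B2m and Psmb8 had -0.13, -0.20 and -0.21. Leaving out single tumors gave medians of -0.38 to -0.12 for RT vs Sham, -0.17 to 1.42 for TGFbi+RT vs Sham, -0.11 to 1.46 for triple vs Sham, 0.25 to 1.77 for TGFbi+RT vs RT, 0.38 to 1.96 for TGFbi+RT vs TGFbi, 0.20 to 1.92 for triple vs RT, 0.37 to 1.91 for triple vs TGFbi and 0.70 to 1.94 for the interaction. In TGFbi+RT this gave -0.14 to 0.92 for H2-K1, -0.22 to 0.80 for B2m and -0.23 to 1.32 for Psmb8, and in the triple group -0.19 to 1.53 for H2-D1. The lowest values came without TGFbi+RT replicate 3 or triple replicate 2.

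With the library code as a term, estimated from the triple group alone, the median was -1.54 in RT vs Sham, 3.10 in TGFbi+RT vs RT, 0.52 in triple vs TGFbi, 1.36 in TGFbi vs RT and 3.14 for the interaction, Psmb10 in RT was -0.92 and H2-D1 in the triple group was -0.27. The term compares triple replicate 1 with replicates 2 and 3, so these shifts carry the level of the high replicate 2. The part of the code itself was not tested. DESeq2 called 1 of the 10 genes in triple vs Sham and 2 for any difference among groups, with 3.51% and 3.92% of all genes called. With the replicate block 0 were called, and the median was 0.92 in TGFbi+RT vs Sham. Without length 3 of 10 genes held their place in the order of levels, and Pearson's correlation kept 2 of the 8 most alike genes. In TGFbi vs Sham the median stayed between -0.55 and -0.29 in all alternatives run. Depth limits Psmb10 most, with 56 fragments in its lowest tumor.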
